A study of Mus musculus with 2 samples.

Results

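The laminin and integrin chain genes were described across stromal cell types of the colon and small intestine of healthy mice without treatment. Members were all genes listed in both count matrices whose symbol names an integrin α chain (Itga), an integrin β chain (Itgb with a number) or a laminin α, β or γ chain (Lama, Lamb, Lamc), with no use of measured values. This rule found 34 of the 16098 genes listed in both matrices, of which 11 were laminin chains, 15 integrin α chains and 8 integrin β chains. Each tissue gave 1 droplet library of 3′ transcript ends (10x Genomics), made from fresh cells that had been stripped of epithelium and sorted as negative for the leukocyte marker CD45 and the epithelial marker EpCAM. The digest with collagenase and dispase lasted 60 minutes for the colon and 45 minutes for the small intestine. How many animals were pooled, and their strain, age and sex, is not given in the sources used here. Because there was 1 library per tissue, no test between tissues was possible. A difference was called at a fixed size of 2-fold, with 95% intervals that cover counting error only and not the spread between animals. Tissue, digestion time and library cannot be told apart.

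Laminins are cross-shaped trimers of an α, a β and a γ chain and are the main glycoproteins of basement membranes, the sheets on which epithelium and endothelium rest and which wrap muscle cells. Integrins are transmembrane receptors made of an α and a β chain, and the pair decides the ligand. The α chains were classed here by their best known ligand. These are laminins for α3, α6 and α7 and collagens for α1, α2, α10 and α11. For α5, α8, αv and αIIb it is the RGD sequence of fibronectin and related proteins. The α4 and α9 chains bind further ligands such as VCAM-1 and tenascin-C. A chain can bind ligands of another class, and binding of laminin outside the laminin class is not counted below. The β1 chain pairs with most α chains, and β4 pairs with α6 alone to form the receptor of hemidesmosomes. In the gut wall, mesenchymal cells are known to make much of the laminin of the epithelial basement membrane.

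The authors' labels defined 6 types that reached 50 cells in both libraries, and the values below are sums over all cells of a label. The first number of each pair is the colon and the second the small intestine: CD81- fibroblasts (CD81- FBs, 3631 and 2823 cells), CD81+ trophocytes that lie near the crypts (875 and 1913), subepithelial myofibroblasts (SEMFs, 1105 and 1109), lymphatic endothelial cells (LECs, 217 and 2498), blood endothelial cells (BECs, 53 and 524) and smooth muscle cells (SMCs, 125 and 468). The libraries held 40684070 and 58134526 unique molecular identifiers (UMIs), with a median of 6598 and 5943 per cell, and 21 cell barcodes occurred in both. The unit is CPM, the UMIs of a gene per 1000000 UMIs of the type; each UMI stands for 1 captured transcript end, so CPM is not scaled by gene length and can be set side by side between genes as captured molecules. A 95% Poisson interval reaches 6.4% above a value from 1000 UMIs, 21.6% above one from 100, and 42.8% above one from 30. Colon BECs had the fewest UMIs (269665), so a count of 0 there allows up to 11.1 CPM.

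Some labels carried transcripts that mark other types, and their source was not tested. The fibroblast gene Adamdec1 was at 9211 CPM in small intestinal SMCs, above the 8191 CPM of the CD81- FBs of that library, and at 1242 CPM in colon SMCs. It is 1 of 5 markers of CD81- FBs, which summed to 10928 CPM in small intestinal SMCs and 12262 CPM in small intestinal CD81- FBs. The rest of that list was thus together lower in the SMC label than in CD81- FBs. Of the smooth muscle markers, Myh11 was at 2894 and 1554 CPM in SMCs. Adamdec1 was also at 1287 CPM in colon BECs and 522 CPM in colon LECs, against 86.2 and 108 CPM in the small intestine. Small intestinal BECs carried the lymphatic marker Lyve1 at 173 CPM (colon BECs had none). In colon BECs the 7 listed leukocyte markers summed to 215 CPM, with Cd79a at 0. Small intestinal SEMFs carried the pericyte genes Kcnj8 (392 CPM, colon 53.7) and Abcc9 (585 CPM, colon 60.4). The colon library held cells with only Y-linked UMIs and cells with only Xist UMIs, so it pools cells of both sexes. The results these transcripts touch most are given also for the cells with few or no UMIs of them.

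The laminin α chains separated the types more sharply than the β and γ chains did. Lama2 (laminin α2, the chain of the laminin of muscle and mesenchyme) led in the 3 fibroblast types. In CD81- FBs it was at 710 and 2275 CPM, in trophocytes at 638 and 2343, and in SEMFs at 653 and 2375. In SMCs Lama2 was at 432 and 1887 CPM. It was low in LECs (68.5 and 63.1 CPM) and in small intestinal BECs (13.7 CPM). Lama2 gave 77.2% of all laminin α UMIs in colon CD81- FBs and 85.8% in small intestinal ones, 75.8% and 91.3% in trophocytes, and 66.0% and 65.9% in SEMFs.

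**Figure D1:**
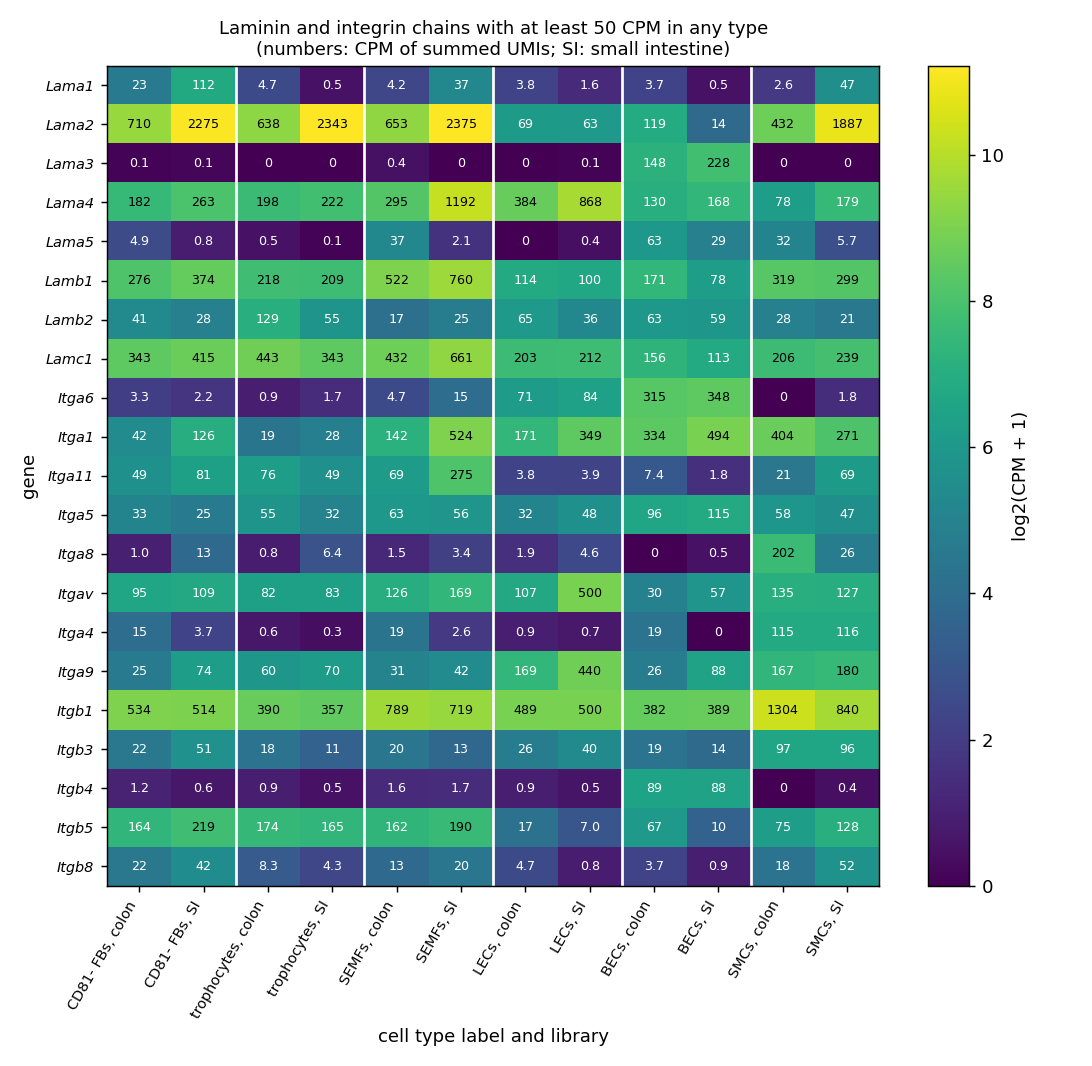
Heat map of the 21 members that reached 50 CPM in any type (rows) over 6 types in 2 libraries (columns); the printed numbers are CPM of summed UMIs and the colour is log2(CPM + 1). Lama2 is high in the fibroblast columns, Lama3, Itga6 and Itgb4 in the BEC columns, and Itgb1 in every column (357 to 1304 CPM).

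The promoters of 3 members are shown because their patterns span the range of the family: Lama2 was high in fibroblasts and SMCs, Itgb1 was high in every type, and Itga8 was highest in SMCs. Each sequence is the 250 bases before the gene start in the RefSeq table (assembly GRCm38.p6, which is mm10), 5′ to 3′ on the gene's strand, in lower case, with a CArG box (the motif of serum response factor, a regulator of muscle genes) in capitals. Lama2 lies at chr10:26980036-27619758 on the minus strand, and its promoter window at chr10:27616943-27617192, a start inside the annotated gene body. Itgb1 lies at chr8:128685654-128733200 on the plus strand, with the window at chr8:128685404-128685653. Itga8 lies at chr2:12106632-12301922 on the minus strand, with the window at chr2:12301945-12302194.
Lama2: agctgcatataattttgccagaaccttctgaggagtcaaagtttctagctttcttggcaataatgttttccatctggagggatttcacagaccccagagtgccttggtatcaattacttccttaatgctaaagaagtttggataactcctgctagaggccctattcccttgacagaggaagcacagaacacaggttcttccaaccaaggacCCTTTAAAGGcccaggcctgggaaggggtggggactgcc
Itgb1: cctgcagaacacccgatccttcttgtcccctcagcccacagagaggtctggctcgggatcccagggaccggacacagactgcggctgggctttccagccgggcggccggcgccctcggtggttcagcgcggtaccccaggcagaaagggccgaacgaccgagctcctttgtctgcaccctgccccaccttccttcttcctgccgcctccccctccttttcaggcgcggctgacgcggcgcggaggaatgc
Itga8: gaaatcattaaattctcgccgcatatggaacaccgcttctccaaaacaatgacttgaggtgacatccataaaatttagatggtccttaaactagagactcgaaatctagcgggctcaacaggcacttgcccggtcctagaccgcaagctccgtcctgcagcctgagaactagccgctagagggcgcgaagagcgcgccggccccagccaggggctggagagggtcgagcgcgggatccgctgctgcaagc
The window of Lama2 held no CG dinucleotide, that of Itgb1 held 21 and that of Itga8 held 18, against a median of 6 over all 32851 promoters of this length and 10.5 over the 24 promoters that matched 21 of the 34 members. A CArG box, which can be read on both strands, stood in 1.47% of the 32851 promoters. Among the 21 members looked at, it stood in those of 2, Lama2 and the low member Itgb6. A match is a description of the letters in the window, not a site in use.

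Lama4 (α4, the chain of vascular and lymphatic basement membranes) was the main laminin α chain of LECs, at 384 and 868 CPM, which was 84.2% and 93.0% of their laminin α UMIs. It was also the second α chain of SEMFs, at 295 and 1192 CPM. In CD81- FBs it was at 182 and 263 CPM, in trophocytes at 198 and 222, in BECs at 130 and 168, and in SMCs at 77.7 and 179. Small intestinal SEMFs were thus above the LECs of their own library in Lama4, and colon SEMFs were below theirs.

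Lama3 (α3, known best from the epithelial laminin of skin and gut) was a BEC chain in both libraries. It was at 148 CPM in colon BECs (95% interval 106 to 202, from 40 UMIs) and 228 CPM in small intestinal BECs (209 to 249, from 500 UMIs), and at most 0.403 CPM in the 5 other types. A Lama3 UMI was found in 43.4% of BECs in the colon and 45.6% in the small intestine, at median depths of 3821 and 3652 UMIs per cell. After thinning to 2000 UMIs per cell these shares were 28.0% and 32.8%. In CD81- FBs, at deeper medians of 6697 and 6977 UMIs, they were 0.0551% and 0.106% before thinning. Lama3 took 32.0% of the laminin α UMIs of colon BECs and 51.9% of those of small intestinal BECs. Colon BECs had 32 Lama2 UMIs, but only 2 in the cells with at most 3 Adamdec1 UMIs. Lama3 had 39 UMIs in those colon cells. In the same small intestinal cells Lama3 had 497 UMIs and Lama2 14. The lower Lama3 share of the colon thus depended in part on the cells with more Adamdec1. The β3 chain gene Lamb3, a partner of α3 in the epithelial trimer, had 0 UMIs in colon BECs, which allows up to 11.1 CPM, and 1 UMI in small intestinal BECs.

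Within small intestinal BECs the chains differed between cells with and without a UMI of Selp (P-selectin, known from venular endothelium), a division made after the values had been seen. The 330 cells without Selp had Lama3 at 401 CPM (365 to 440), and the 194 cells with it at 47.6 CPM (35.4 to 62.5). Lama4 was at 260 and 72.7 CPM in the same order, and the collagen receptor chain Itga1 at 690 and 288 CPM. Itga3, a laminin receptor chain, went the other way, at 19.6 and 54.1 CPM, and Itga6 was at 296 and 401 CPM. Itgb4 was at 80.4 CPM without and 96.1 CPM with Selp, with overlapping intervals (64.6 to 98.8 and 78.4 to 117). Cells without a Selp UMI were shallower, with a median of 2906 against 5121 UMIs per cell. In the colon, the 45 cells labelled as capillary endothelium held 90% of the Lama3 UMIs of BECs and 84.2% of all their UMIs.

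Lama1 and Lama5 were minor chains. Lama1 (α1, the chain of the early embryonic laminin) reached 112 CPM in small intestinal CD81- FBs, 46.7 CPM in small intestinal SMCs and 36.6 CPM in small intestinal SEMFs, against 22.7, 2.59 and 4.17 CPM in the colon. It was at most 4.71 CPM in trophocytes, LECs and BECs. Lama5 (α5, found in vessels and in epithelial basement membrane) was highest in BECs, at 63.0 CPM (36.7 to 101) and 28.7 CPM (22.1 to 36.8). It was at 36.6 and 2.15 CPM in SEMFs and at 32.4 and 5.7 CPM in SMCs. In the colon, the Lama5 levels of BECs and SEMFs did not differ beyond counting error. Lama5 was thus higher in the colon and Lama1 in the small intestine in all 3 of the types CD81- FBs, SEMFs and SMCs.

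**Figure D2:**
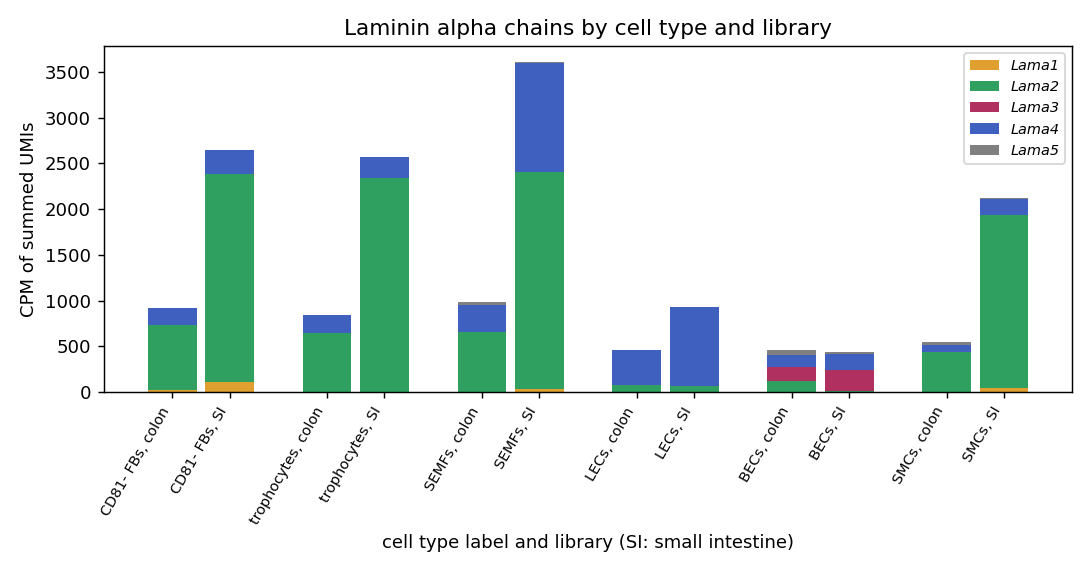
Stacked bars of the CPM of the 5 laminin α chains (vertical axis, linear from 0) in each type and library (horizontal axis). The small intestinal bars of the 3 fibroblast types and SMCs stand at 2118 to 3606 CPM in total and the colon bars at 545 to 989, with Lama2 as the main part; LEC bars are mainly Lama4, and Lama3 is visible only in BECs.

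The β and γ chains were spread more evenly. Lamc1 (γ1, part of most laminin trimers) was within 113 to 661 CPM in every type of both libraries. Lamb1 (β1) was highest in SEMFs, at 522 and 760 CPM, was at 276 and 374 CPM in CD81- FBs, 218 and 209 in trophocytes and 319 and 299 in SMCs, and was lowest in endothelium (114 and 100 CPM in LECs, 171 and 78.0 in BECs). Lamb2 (β2, the β chain of vessels and synapses) was highest in colon trophocytes, at 129 CPM against 54.7 CPM in the small intestine, and lay between 16.8 and 64.8 CPM elsewhere. Lamc3 was at most 5.35 CPM and Lamb3 at most 1.78 CPM. Over the 12 combinations of type and library, Lamc1 and Lamb1 had a rank correlation of 0.73, a description over points that share libraries and depth.

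A trimer needs 1 chain of each kind, so the sums of captured molecules were set side by side. β over γ UMIs lay between 0.637 and 1.65 in all 12 combinations. α over γ lay between 1.80 and 2.91 in the colon, and between 3.87 and 8.64 in the small intestine. In CD81- FBs it was 2.56 in the colon and 6.35 in the small intestine, in trophocytes 1.80 and 7.43, and in SMCs 2.60 and 8.64. Without Lama2 the ratio in these 3 types was 0.583 and 0.900, 0.434 and 0.645, and 0.537 and 0.943. In these 3 types the excess of α over γ molecules was therefore carried by Lama2. The SMC values cover all cells of the label. In SMCs with at most 3 Adamdec1 UMIs, Lama2 was at 342 and 288 CPM and Lama4 at 67.9 and 125 CPM. Lamc1, the main γ chain, was at 208 and 163 CPM there. The wide SMC gap between the libraries was thus not found in these cells, which are few in the small intestine. How well the 3′ end of each chain's transcript is captured was not tested, so these ratios do not give chain or protein ratios.

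The integrin β1 gene Itgb1 was the most abundant β chain in all 12 combinations. It was also above every α chain, with the exceptions of Itga1 in small intestinal BECs and Itgav in small intestinal LECs, where Itgav and Itgb1 were at 500 CPM each. It was at 534 and 514 CPM in CD81- FBs, 390 and 357 in trophocytes, 789 and 719 in SEMFs, 489 and 500 in LECs, 382 and 389 in BECs, and 1304 and 840 in SMCs. Colon and small intestine were within 0.13 on the log2 scale in each type other than SMCs, where the colon was higher by 0.64 (0.53 to 0.74).

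The laminin-binding α chains were concentrated in endothelium. Itga6 (α6) was at 315 CPM in colon BECs (252 to 390) and 348 CPM in small intestinal BECs (323 to 373), and at 71.3 and 84.2 CPM in LECs. In the other 4 types it was at most 14.9 CPM, the value of small intestinal SEMFs, and it had no UMI in colon SMCs. A UMI of Itga6 was found in 64.2% and 55.5% of BECs, 28.6% and 26.7% of LECs, and 2.53% and 7.12% of the deeper SEMFs. Thinned to 2000 UMIs, the shares were 46.0% and 42.0%, 12.9% and 14.3%, and 1.00% and 2.69%. Its partner Itgb4 (β4) was found in BECs, at 89.0 CPM (57.0 to 132) and 88.0 CPM (76.1 to 101), and was at most 1.69 CPM elsewhere. Itga3 reached 36.5 CPM in small intestinal BECs (28.9 to 45.4), against 11.1 CPM from 3 UMIs in the colon. Itga7, the laminin receptor chain of muscle, reached 5.18 CPM in colon SMCs.

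The collagen-binding chains were the most abundant α class in SEMFs, BECs and SMCs of both libraries. Itga1 (α1) was at 404 and 271 CPM in SMCs, 334 and 494 in BECs, and 171 and 349 in LECs. In SEMFs it was at 142 and 524 CPM, in CD81- FBs at 41.8 and 126, and in trophocytes at 19.5 and 27.5. Itga11 (α11, the fibrillar collagen receptor of fibroblasts) was at 69.4 and 275 CPM in SEMFs, 48.7 and 80.7 in CD81- FBs, 76.0 and 49.2 in trophocytes, 20.7 and 69.1 in SMCs, and at most 7.42 CPM in endothelium. Both chains were thus highest in SEMFs among the fibroblast types of the small intestine. The exons of Itga1 overlap those of the same-strand gene Gm49395, so reads there could not be told apart.

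Of the chains that bind RGD ligands, Itgav (αv) was at 500 CPM in small intestinal LECs and 107 CPM in colon LECs. It was at 94.99 and 109 CPM in CD81- FBs, 81.5 and 82.8 in trophocytes, 126 and 169 in SEMFs, 135 and 127 in SMCs, and 29.7 and 57.0 in BECs. Itga5 (α5, of the main fibronectin receptor) was highest in BECs, at 96.4 and 115 CPM, and lay between 24.7 and 62.9 CPM elsewhere. Itga8 (α8, the receptor of nephronectin) was at 202 CPM in colon SMCs (172 to 236) and 25.7 CPM in small intestinal SMCs (20.1 to 32.3). It was at 13.4 CPM in small intestinal CD81- FBs and at most 6.39 CPM in every other combination. Itga8 was thus an SMC chain in the colon and low in all other types there. A UMI was found in 54.4% of colon SMCs (30.9% thinned) and 11.8% of small intestinal SMCs (4.84% thinned). Itga8 overlaps the opposite-strand gene E030013I19Rik.

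Itga9 (α9, known for lymphatic valves) was at 169 and 440 CPM in LECs and 167 and 180 CPM in SMCs. It was at 24.6 and 74.0 CPM in CD81- FBs, 59.5 and 70.1 in trophocytes, 31.3 and 41.5 in SEMFs, and 26.0 and 88.0 in BECs. Itga4 (α4, a receptor for VCAM-1 and fibronectin) was at 115 and 116 CPM in SMCs and at most 18.8 CPM elsewhere, with no UMI in small intestinal BECs. Itgb3 (β3, an αv partner) was also highest in SMCs, at 97.1 and 96.2 CPM, and was at 50.6 CPM in small intestinal CD81- FBs and 10.6 to 40.1 CPM elsewhere. For Itga4, Itgb3 and Itga9 the SMC levels of the libraries differed by less than the counting intervals.

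Itgb5 (β5, an αv partner) was a chain of mesenchyme, at 164 and 219 CPM in CD81- FBs, 174 and 165 in trophocytes, 162 and 190 in SEMFs and 75.1 and 128 in SMCs. It was at 16.9 and 7.05 CPM in LECs and 66.7 and 10.5 CPM in BECs. Itgb8 (β8, which with αv activates latent TGF-β) was at 51.7 CPM in small intestinal SMCs, 42.5 CPM in small intestinal CD81- FBs and at most 21.6 CPM elsewhere. The 13 members not at 50 CPM in any type included Itga10, Itga2, Itga2b, Itga3, Itga7, Itgae, Itgal, Itgb2, Itgb6, Itgb7, Lamb3 and Lamc3, with 36.5 CPM (Itga3) as their highest value. The leukocyte chains Itgae and Itgal were among them, after a sort that removed CD45+ cells.

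The type in which each member was highest was counted beside the same count over all genes. Of 31 members with at least 30 UMIs in the library, those highest in a given type numbered, in the colon, 8 in SMCs (17.3%), 7 in BECs (22.7%), 1 in SEMFs (18.1%), 2 in LECs (19.7%), 7 in trophocytes (12.3%) and 6 in CD81- FBs (9.9%), with the share of all genes in parentheses. In the small intestine the counts were 10 in SMCs (13.3%), 10 in BECs (17.9%), 6 in SEMFs (31.5%), 2 in LECs (20.1%), 1 in trophocytes (8.78%) and 2 in CD81- FBs (8.46%). The share of members was above that of all genes in SMCs of both libraries, below it in SEMFs of both, and near it in colon BECs. A level at least 2-fold above the next type was found for 10 of 31 members in the colon, which is 32.3% against 16.7% of all genes, and for 14 of 31 in the small intestine, which is 45.2% against 16.6%. The libraries had the same highest type for 17 of 30 members, which is 56.7% against 45% of 13934 genes. In the order of levels, the highest and the next type did not differ beyond counting error for 17 of 31 members in the colon and 10 of 31 in the small intestine. Such ties made up 4 of the 8 members highest in colon SMCs (Itga1, Itga10, Itga7 and Itgav) and 3 of the 10 highest in small intestinal SMCs. They also included Itgb6 and Itgb7, which were among the 10 colon members at least 2-fold above the next type; in the small intestine no member of that kind was a tie.

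The sum of the laminin α chains was highest in the fibroblast types, and the share of laminin-binding integrin chains was highest in BECs. Lama3 was highest in BECs too, as was Lama5, which in the colon was within counting error of SEMFs. Itga3, Itga6 and Itga7 together made 37.9% (31.7 to 44.5, exact binomial) of the integrin α UMIs of colon BECs and 33.0% (31.2 to 34.9) of those of small intestinal BECs. In LECs the share was 12.9% (10.3 to 15.9) and 5.90% (5.54 to 6.27). The share was 2.43% and 1.08% in CD81- FBs, 1.51% and 1.21% in trophocytes, 1.58% and 1.502% in SEMFs, and 1.04% and 0.79% in SMCs. Collagen-binding chains held 36.5% and 48.6% in CD81- FBs, 45.8% and 73.4% in SEMFs, 40.9% and 44.0% in BECs and 38.3% and 41.0% in SMCs.

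**Figure D3:**
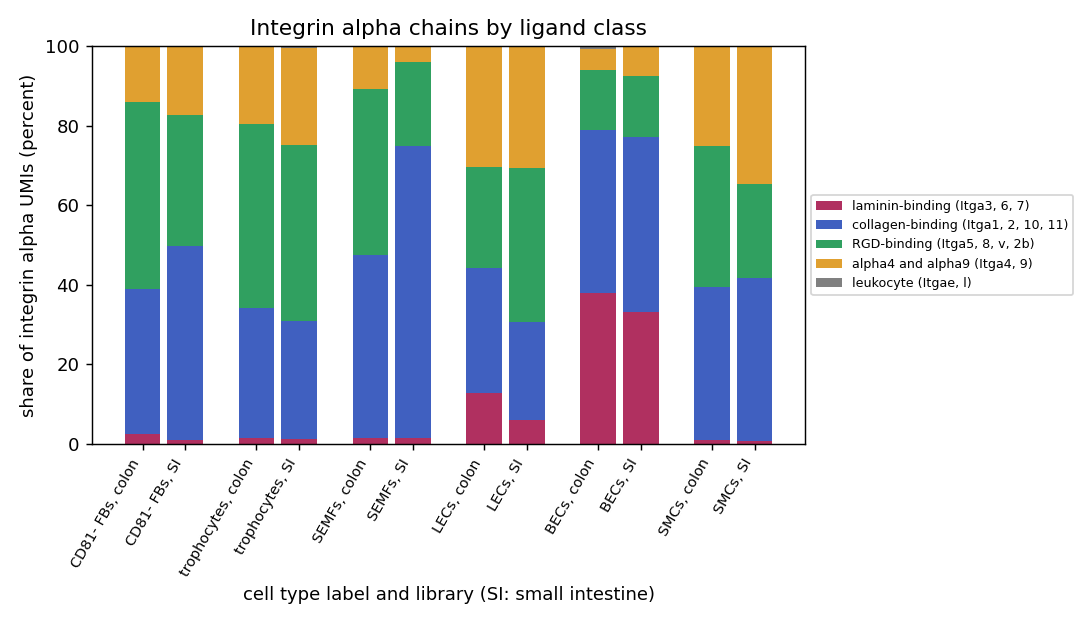
Stacked bars of the share of integrin α UMIs (vertical axis, percent) in each ligand class, per type and library. The laminin-binding class takes 37.9% and 33.0% in BECs, 12.9% and 5.90% in LECs, and at most 2.43% in the other 4 types.

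Set against the laminin chains of the same cells, laminin α UMIs outnumbered laminin-binding integrin α UMIs by 134 and 540 times in CD81- FBs, 179 and 742 times in trophocytes, 134 and 220 times in SEMFs and 46.8 and 313 times in SMCs. The SMC ratios rested on 9 and 19 integrin UMIs, with intervals of 24.4 to 103 and 200 to 520. In SMCs with at most 3 Adamdec1 UMIs, Lama2 had 146 and 23 UMIs. Itga3 had 2 and 0 there, Itga6 0 and 0, and Itga7 1 and 3. The higher SMC ratio of the small intestine was not found in these few cells. In LECs the ratio was 6.31 and 11.01, and in BECs 1.42 and 1.14. Small intestinal BECs thus held nearly as many molecules of Itga3, Itga6 and Itga7 together (842 UMIs) as of laminin α chains (963), with no other integrin α chain counted. In colon BECs the counts were 88 and 125, and the ratio had an interval of 1.07 to 1.89. Of the colon laminin α UMIs 32 were of Lama2, which had only 2 in BECs with at most 3 Adamdec1 UMIs. Over the 12 combinations, the rank correlation of the laminin α sum with the laminin-binding integrin sum was -0.58 and with Itgb1 0.31. With Dag1 (dystroglycan, a laminin receptor that is no integrin), looked at after its values had been seen, it was 0.82. These points share libraries and depth, and each CPM is a share of the same total as the others of its type.

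Dag1 itself was at 172 and 205 CPM in CD81- FBs, 191 and 269 in SEMFs, 159 and 177 in SMCs and 84.5 and 83.9 in LECs. Dag1 was at 155 CPM or more in all fibroblast types and SMCs. Its level in BECs, the type with the highest share of Itga3, Itga6 and Itga7, is not given here. No relation between Dag1 and these integrin chains is therefore drawn. Bcam, an immunoglobulin-family receptor of laminin α5, was at 167 and 163 CPM in BECs.

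Between the tissues, the laminin α chains of mesenchyme held some of the widest differences. In CD81- FBs, 4 of 30 tested members were at least 2-fold higher in the colon (background 8.85% of all genes) and 6 in the small intestine (11.7%). Those higher in the colon included Lama5 by 2.55 on the log2 scale (1.81 to 3.38), Lamc3 by 2.78 (1.91 to 3.78) and Itga4 by 2.00 (1.64 to 2.38). Those higher in the small intestine had log2 ratios of colon to small intestine of -1.68 for Lama2, -2.30 for Lama1, -3.79 for Itga8, -1.59 for Itga1, -1.59 for Itga9 and -1.22 for Itgb3. The median log2 ratio was -0.14 over the members and -0.20 over all genes tested.

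In trophocytes, 3 of 23 members were higher in the colon (6.85% of all genes) and 2 in the small intestine (9.31%). Lamb2 was higher in the colon by 1.24 (1.10 to 1.38) and Lama1 by 3.34 (2.12 to 4.77), the last from 30 against 7 UMIs. Lama2 had a log2 ratio of -1.88 (-1.92 to -1.83) and Itga8 of -3.02 (-4.68 to -1.75). The medians were 0.12 for members and -0.10 for all genes tested. Lama2 was the most abundant of these members.

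In SEMFs, 4 of 21 members were higher in the colon (7.51%) and 7 in the small intestine (16.2%), with medians of -0.54 for members and -0.32 for all genes tested. The chains of the abundant laminins and of the collagen receptors were lower in the colon: Lama2 by a log2 ratio of -1.86 (-1.91 to -1.82), Lama4 of -2.01 (-2.08 to -1.94), Itga1 of -1.89 (-1.99 to -1.79) and Itga11 of -1.99 (-2.13 to -1.84). Lama1 (-3.14), Itga6 (-1.66) and Itga8 (-1.19) were lower as well. Lama5 was higher in the colon by 4.09 (3.32 to 4.98), Itga4 by 2.85 (2.12 to 3.67) and Itga2b, the platelet chain, by 2.23 (0.95 to 3.77). In SEMFs with no UMI of Kcnj8 or Abcc9 (617 colon cells and 30 of 1109 small intestinal cells), the ratio was -2.34 for Lama2, -1.80 for Lama4, -1.94 for Itga1 and -1.40 for Itga11. In the small intestine 1079 SEMFs had a UMI of either gene. The 30 without one were shallower, with a median of 3412 against 5583 UMIs per cell, so they may still express these genes. The 4 differences were past 2-fold in the cells with no UMI of either gene too. The low members could not be followed there: Lama1 had 19 UMIs in the colon and 1 in the small intestine (-0.85, -3.51 to 4.52), and Itga6 had 18 and 0 and Itga4 88 and 0. Lama5, at 206 UMIs and 1 UMI, was higher in the colon by 2.58 (0.09 to 7.89).

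In LECs, 1 of 15 members was higher in the colon (5.95%) and 5 in the small intestine (15.9%), with medians of -0.24 for members and -0.23 for all genes tested. Itgav had a log2 ratio of -2.22 (-2.50 to -1.96), Itga9 of -1.38 (-1.60 to -1.17), Lama4 of -1.18 (-1.32 to -1.03) and Itga1 of -1.03 (-1.25 to -0.82). Relative to the median gene, Lama4 (-0.91) and Itga1 (-0.76) were within 2-fold. Itga8 (-1.28, -4.36 to 0.65) rested on 2 UMIs in the colon. Itgb5 was higher in the colon by 1.26 (0.43 to 2.01), but was at 4.29 and 4.01 CPM in the 204 and 2475 LECs with at most 3 Adamdec1 UMIs. With the top Itgb5 cell left out its log2 ratio was 0.89. In the same 204 and 2475 cells, Lama4 was at 400 and 878 CPM and Itgav at 106 and 507 CPM.

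In BECs, 4 of 18 members were higher in the colon (5.8%) and 3 in the small intestine (18.8%), with medians of -0.08 for members and -0.21 for all genes tested. Higher in the colon were Lama2 by 3.12 (2.35 to 3.88), Itgb5 by 2.67 (1.69 to 3.62), Lama5 by 1.13 (0.27 to 1.92) and Lamb1 by 1.13 (0.63 to 1.61). Of the 32 colon UMIs of Lama2, 30 came from the 3 cells with more than 3 Adamdec1 UMIs, and 17 from 1 cell. In cells with at most 3 Adamdec1 UMIs (50 and 521), Lama2 was at 9.33 and 6.45 CPM (2 and 14 UMIs), Lamb1 at 135 and 73.7, Itgb5 at 42.0 and 9.67 and Lama5 at 74.7 and 29.0 CPM. Lama2 (log2 ratio 0.53, -2.65 to 2.66) and Lamb1 (0.88) were then within 2-fold, and Itgb5 (2.12) and Lama5 (1.36) past it. With the top cell for each gene left out, Lamb1 (0.83) and Lama5 (0.9993) were within 2-fold. The Itgb5 ratio of 2.12 rested on 9 colon UMIs. Over the alternatives apart from means of the natural log values, the lowest Itgb5 ratio was 0.75, within 2-fold too.

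Higher in small intestinal BECs were Itga9 by a log2 ratio of -1.76 (-3.10 to -0.69), Itga3 of -1.71 (-4.02 to -0.11) and Itga2 of -1.15 (-4.25 to 0.81), the last within counting error of no difference. The chains that marked BECs were within 2-fold: Itga6 had a ratio of -0.14 (-0.48 to 0.18), Itgb4 of 0.02 (-0.66 to 0.63) and Lama3 of -0.62 (-1.12 to -0.15). In BECs with no UMI of the lymphatic genes Lyve1 and Mmrn1 (53 and 471 cells), Itga9 was at 26.0 and 62.7 CPM, Itgav at 29.7 and 18.9, and Lama4 at 130 and 110 CPM. Itgav was thus higher in the small intestine in all BECs and higher in the colon in this subset, within 2-fold both times.

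**Figure D4:**
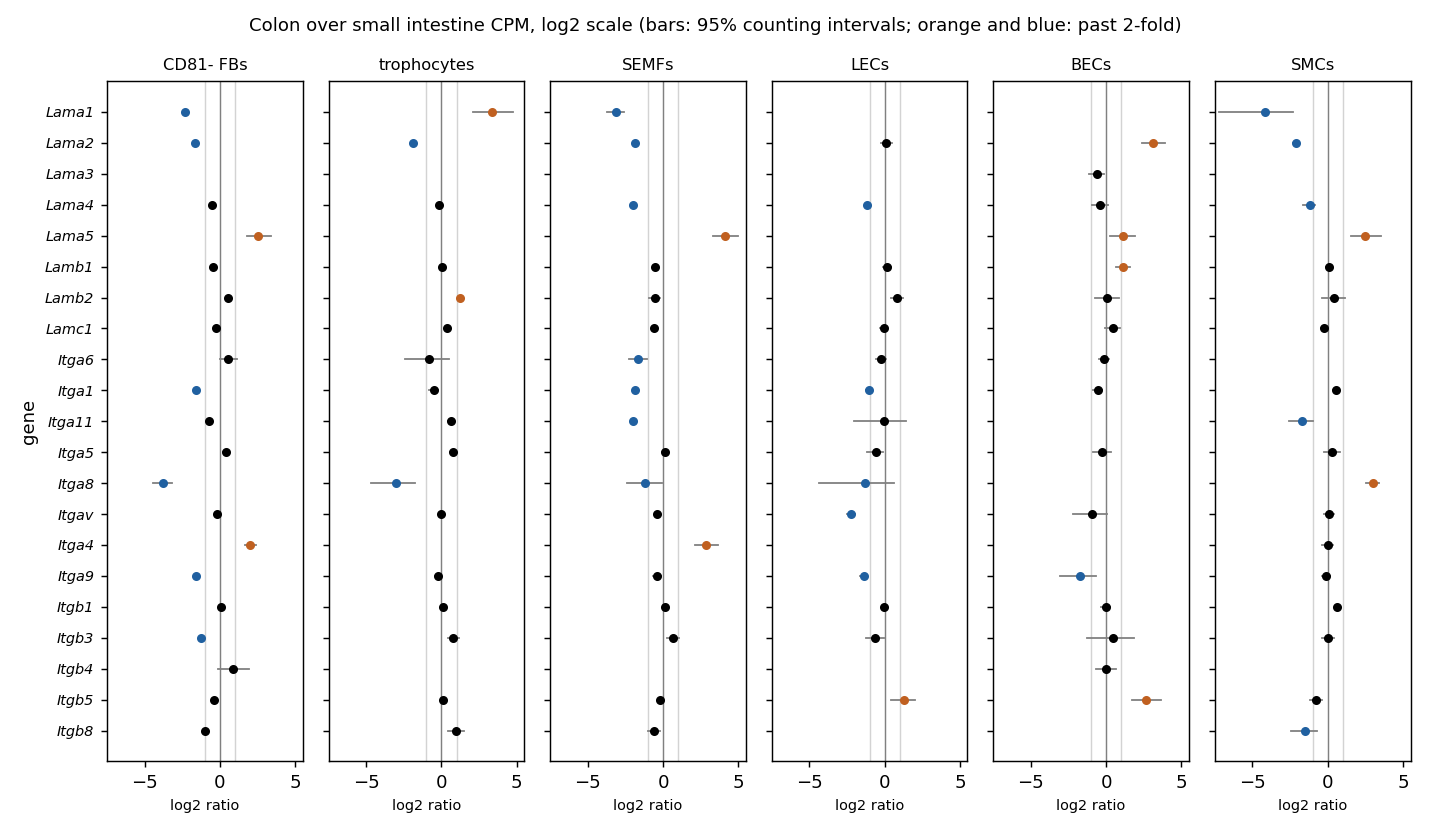
Log2 ratio of colon to small intestinal CPM (horizontal axis) of the members at 50 CPM or more (rows), 1 panel per type; bars are 95% counting intervals, orange dots are at least 2-fold higher in the colon and blue dots in the small intestine. Lama2 is blue in the fibroblast types and SMCs and orange in BECs, and Itgb1 stays within 0.64 of 0 in every panel.

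In SMCs, 2 of 18 members were higher in the colon (4.38%) and 5 in the small intestine (19.6%), with medians of 0.00 for members and -0.30 for all genes tested. Itga8 was higher in the colon by 2.98 (2.57 to 3.40) and Lama5 by 2.51 (1.54 to 3.51). Lower in the colon were Lama2 (-2.13, -2.29 to -1.97), Lama4 (-1.20, -1.61 to -0.81), Lama1 (-4.17, from 2 against 131 UMIs), Itga11 (-1.74) and Itgb8 (-1.51). Small intestinal CD81- FBs had UMIs of these members too. Itgb8 was lower there (42.5 CPM) than in the small intestinal SMC label (51.7 CPM), and the others were higher there. Adamdec1 was at 9211 CPM in this SMC label, and the part of fibroblast transcripts in these differences was not tested.

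The SMC label was also divided by Adamdec1, a choice made after the values had been seen. Of 125 colon cells 76 had at most 3 Adamdec1 UMIs, and of 468 small intestinal cells 19. In these cells Lama2 was at 342 and 288 CPM, with a log2 ratio of 0.25 (-0.39 to 0.95) in place of -2.13. In the 49 and 449 cells with more than 3 it was at 544 and 1934 CPM. The lower Lama2 of colon SMCs was thus found among the cells that carry the fibroblast transcript, and not among those with at most 3 of its UMIs.

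Itga8 kept its direction: it was at 253 and 12.5 CPM (108 UMIs and 1 UMI; log2 ratio 4.34, 1.83 to 9.66) with at most 3 Adamdec1 UMIs, and at 139 and 26.0 CPM above. Itgb1 was at 1457 and 913 CPM in the cells with at most 3. Lama5 was at 49.2 and 37.5 CPM there, the latter from 3 UMIs, and its ratio of 0.39 (-1.35 to 2.78) was within 2-fold. Of the other members lower in colon SMCs, Lama4 had a ratio of -0.88 (-1.96 to 0.32), within 2-fold. Itga11 had 10 UMIs in the colon and 0 in the small intestine, Itgb8 had 9 and 0, and Lama1 had 1 and 0. A count of 0 in these small intestinal cells allows up to 37.5 CPM, so the direction of these differences could not be decided there. Members past 2-fold in these cells and not in all SMCs were Lamb1, at 286 and 62.5 CPM (5 UMIs), with a ratio of 2.19 (0.93 to 3.84), and Itgb5, at 58.6 and 163 CPM, with a ratio of -1.47 (-2.49 to -0.38). The 19 small intestinal cells held 79999 UMIs, so these levels are coarse. They carried the pericyte gene Rgs5 at 1300 CPM, against 384 CPM in the colon cells, and the part of such cells in these differences was not tested.

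**Figure D5:**
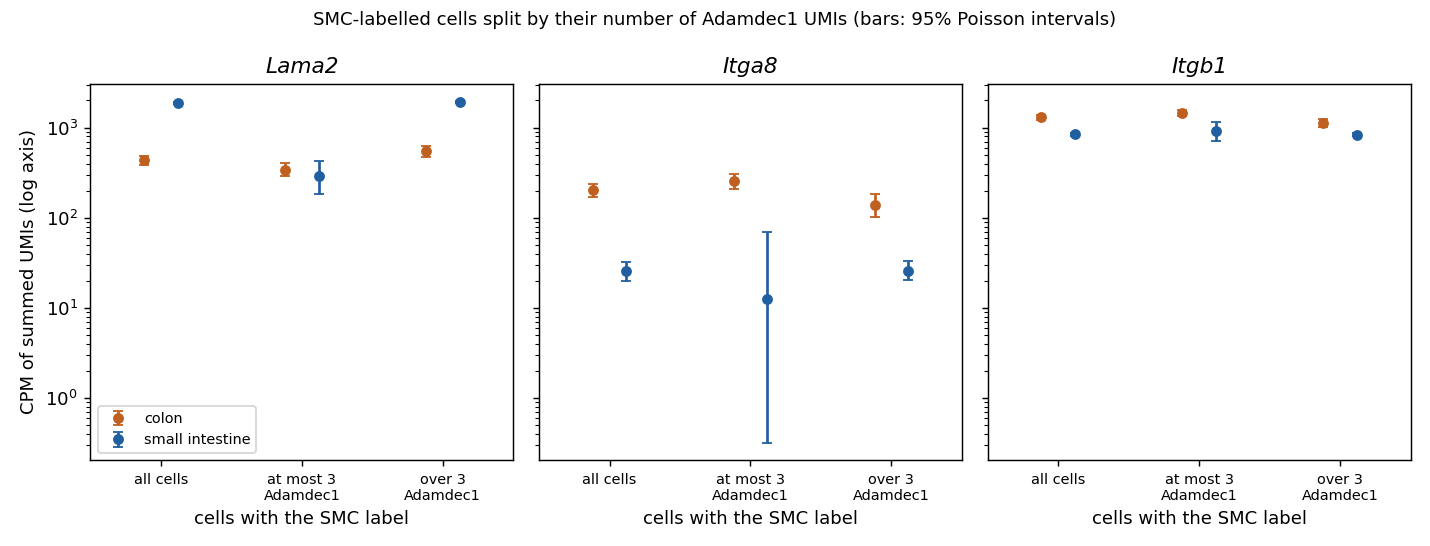
CPM (log axis) of Lama2, Itga8 and Itgb1 in all cells with the SMC label, in those with at most 3 and in those with over 3 Adamdec1 UMIs; dots are summed values and bars 95% Poisson intervals. Lama2 is at 342 and 288 CPM in cells with at most 3 and at 544 and 1934 CPM in the others, while Itga8 is higher in the colon in each set.

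Genes that act with these chains, taken from lists of the pathway, were counted by the same fold, with the share of all genes in parentheses. Of the other laminin receptors, none of 6 passed in CD81- FBs (8.85% higher in the colon, 11.7% in the small intestine) or trophocytes (6.85% and 9.31%). In LECs 3 of 6 were higher in the colon (5.95%), led by the syndecan Sdc2 at 84.5 and 11.6 CPM. These LEC values cover all cells of the label, and colon LECs carried more Adamdec1 than small intestinal ones. Of the basement membrane partners of laminin, 3 were higher in the colon (8.85%) and 4 in the small intestine (11.7%) of 16 in CD81- FBs, and 5 of 15 were higher in small intestinal SEMFs (16.2%). Among them Nid2, which links laminin to collagen IV, was at 6.59 and 64.2 CPM in SEMFs. The collagen IV chain genes Col4a5 and Col4a6, which lie head to head and form their own network, were at 53.6 and 6.35 CPM and at 28.7 and 2.93 CPM in CD81- FBs. Sparc, a collagen-binding protein, was at 2404 and 5983 CPM in trophocytes.

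Of the ligands of RGD-binding and α4 or α9 integrins, 13 of 16 were listed in both libraries. Npnt (nephronectin, the ligand of α8β1) was at 5.18 and 443 CPM in SMCs, with a log2 ratio of -6.42. In SMC cells with at most 3 Adamdec1 UMIs, Npnt was at 7.03 and 488 CPM. The receptor chain Itga8 and its ligand Npnt thus differed in opposite directions between the SMC labels, and both differences held in that subset. Postn (periostin, a ligand of αv integrins) was at 1666 and 123 CPM in CD81- FBs and 779 and 31.6 CPM in SEMFs. Smoc2 was at 23.3 and 448 CPM in SEMFs. Of 19 listed integrin adaptors, at most 3 passed in either direction in any type, against 4.38% to 19.6% of all genes, so most of these counts lay near or below the background. Vcl (vinculin) was at 126 and 530 CPM in BECs, with a ratio of -2.07.

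Within the colon library, members were compared between cells with only Y-linked UMIs and cells with only Xist UMIs of the same type. In CD81- FBs (1040 and 1615 cells), 2 of 24 members were past 2-fold (background 1.99%): Itga4 at 8.26 and 19.0 CPM, and Itga6 at 2.10 and 4.56 CPM. No member was past 2-fold among 16 tested in trophocytes (2.8%), 18 in SEMFs (2.06%), 10 in LECs (5.98%), 12 in SMCs (4.28%) and 3 in BECs (12.8%). The higher Itga4 of colon CD81- FBs stayed past 2-fold against the small intestine in both subsets, with log2 ratios of 1.15 and 2.35. Whether this is a difference of sex or of animals was not tested.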

How the data were processed

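Single-cell libraries of sorted stromal cells, 1 from the colon and 1 from the small intestine, were analysed. The authors deposited UMI counts per gene and cell, cell type labels, and natural log values scaled to 10000 per cell. Cell Ranger 7.1.0, Seurat 4 and mm10 are named per the submitters' processing notes. Counts were summed over all cells of each type, with colon capillary, arterial and venous labels joined as BECs, and divided by the summed UMIs of the type. Members with at least 30 UMIs in a type over both libraries were tested for a 2-fold difference, and no p-value was computed. Intervals were exact Poisson, conditional binomial or Clopper-Pearson, and a count of 0 was bounded at 3 counts; they cover counting error only, and the 53 colon BECs set the weakest precision. Members with at least 50 CPM in any type are given with values, the others by range and counts; list genes are named where their CPM or log2 ratio was the most extreme of the list in a type, and Dag1, Bcam, Col4a5, Nid2 and Selp were named beyond that after their values were seen. Counts cover all members, of which 1 is not reported here by name. Members and lists were chosen with earlier results of these data known. Scrublet marked 1 of 6018 colon and 85 of 9359 small intestinal cells; the colon call did not work, so doublets were left in and the 6% of cells with the highest score (361 and 561) were left out as an alternative. Shares of cells were thinned to 2000 UMIs. Other alternatives were the UMI minimum, the fold, scaling to the median gene, means per cell or of the natural log values, cells with only Y-linked or only Xist UMIs, and leaving out the top cell; divisions by Adamdec1, Kcnj8 and Abcc9, or Lyve1 and Mmrn1 were chosen after seeing the data. Gene positions are from the mm10 annotation (GENCODE). Scripts were tested on simulated data and used Python 3.11.15, numpy 2.4.6, scipy 1.17.1, scanpy 1.11.5 and matplotlib 3.10.9.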

Additional observations from a re-analysis of the deposited data

Results flagged for a closer look

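For 3 members the tissue difference had opposite signs in different types, and the difference between the types was not tested. Itga8 had a log2 ratio of colon to small intestine of 2.98 in SMCs and -3.79 in CD81- FBs. Lama1 had 3.34 in trophocytes and -4.17 in SMCs, each from fewer than 10 UMIs in the lower library. Lama2 had 3.12 in BECs and -2.13 in SMCs; 30 of its 32 colon BEC UMIs came from 3 cells that also carried Adamdec1.

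The 8 colon cells with a pericyte label were in no comparison, and 6 members had more than 3 UMIs in them. They were Itgb1 with 31 UMIs (894 CPM), Itga1 with 12 (346 CPM), Lama2 with 11 (317 CPM), Lamc1 with 10 (288 CPM), and Itga4 and Itgb5 with 4 each (115 CPM). With 34676 UMIs in all, these 8 cells allow no finer statement.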

How the results depend on the processing

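For the members at 50 CPM or more in a type, 105 pairs of member and type had enough UMIs; 39 were past 2-fold, and 37 of these kept their sign under every alternative that gave a direction for the pair (at most 9). In SMCs with at most 3 Adamdec1 UMIs, Itga11 (10 and 0 UMIs), Itgb8 (9 and 0) and Lama1 (1 and 0) gave none. Nor did Itga4 (88 and 0), Itga6 (18 and 0) and Itga8 (1 and 0) in SEMFs with no UMI of Kcnj8 or Abcc9. The pairs that changed sign were Itgb5 in LECs, at -1.81 once the top 6% by doublet score were left out, and Lama2 in SMCs. The latter was at 0.25 in cells with at most 3 Adamdec1 UMIs. The cause was not tested. Counts of members past 2-fold, colon first and then small intestine, moved by over 1.5 times as follows, and the other counts stayed within that. Means of the natural log values gave 0 and 1 in CD81- FBs, 0 and 1 in trophocytes, 0 and 4 in SEMFs, 0 and 2 in LECs, 0 and 0 in BECs, and 0 and 1 in SMCs, since a mean of log values shrinks differences of sparse genes by construction. With 1 UMI in each library as the minimum there were 7 and 4 in trophocytes, and 6, 9 and 5 higher in the colon in LECs, BECs and SMCs. With a minimum of 100 UMIs, which leaves fewer genes, there were 2, 0, 1 and 1 higher in the colon in SEMFs, LECs, BECs and SMCs, and 1 higher in the small intestine in BECs. A fold of 3 gave 0 and 1 in LECs, 2 higher in the colon in BECs and 3 higher in the small intestine in SMCs. The median gene had log2 ratios of -0.22, -0.11, -0.33, -0.27, -0.30 and -0.27 in CD81- FBs, trophocytes, SEMFs, LECs, BECs and SMCs, and relative to it LECs gave 2 and 3. Equal weight per cell gave 0 higher in the colon in LECs and 1 higher in the small intestine in BECs. With 0 in LECs, the colon count fell in the same way without high doublet scores, without the top cell, and with at most 3 Adamdec1 UMIs. BECs gave 2 higher in the colon without the top cell, with at most 3 Adamdec1 UMIs, and with only Y-linked or only Xist cells. Only Y-linked cells also gave 2 in SEMFs, 0 and 3 in LECs and 1 in SMCs, and only Xist cells 1 in SMCs. Without Kcnj8 and Abcc9, SEMFs gave 1 higher in the colon, and with at most 3 Adamdec1 UMIs, SMCs gave 1 higher in the small intestine.

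The highest type was shared by 11 of 23 members with only Y-linked colon cells, by 11 of 22 with a minimum of 100 UMIs, and by 14 to 18 of 30 under the others. The laminin-binding share of integrin α UMIs was 1.81% and 2.90% in colon CD81- FBs with only Y-linked and only Xist cells, and 15.9% in colon LECs and 47.1% in colon BECs with only Y-linked cells. In the small intestine it was 35.9% in BECs without high doublet scores and 36.3% without Lyve1 and Mmrn1, 4.11% in SMCs with at most 3 Adamdec1 UMIs, and 0% in the 30 SEMFs without Kcnj8 and Abcc9. No paired analysis was possible because each tissue has 1 library.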
